A study of Mus musculus with 2 samples.

Results

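Interferon-responding regulatory T cells (Tregs) of a mouse tumour are CD4 T cells of the Foxp3 lineage that carry transcripts induced by interferon. They were chosen on measured values. A cell was taken into the Treg gate with at least 2 UMIs (unique molecular identifiers, 1 per captured transcript) of Cd3d, Cd3e and Cd3g and at least 6 UMIs of Foxp3, Il2ra, Ikzf2 and Ctla4. It could hold at most 1 UMI of Cd8a and Cd8b1 and at most 3 UMIs of Lyz2, C1qa and C1qb. Members were gate cells with 0 UMIs of the cycling genes Mki67 and Top2a and at least 5 UMIs, summed, of Ifit1, Ifit3, Ifit3b, Usp18 and Rsad2 (the rule genes). Of 8010 deposited barcodes 397 were members, 177 in the cKO library and 220 in the WT library. They were set against 1224 cKO and 1240 WT gate cells in which the same sum was 0 (sum-0 Tregs).

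The cKO library (genotype label JMJD1CTregcKO) came from C57BL/6 mice 8 to 12 weeks old with Jmjd1c deleted in Tregs, and the WT library (JMJD1CWT) from WT mice of the same strain and age. The protein of Jmjd1c belongs to the JmjC family, whose best known members remove methyl groups from histones. For both, tumours were digested, Tregs were drawn from the lymphocytes with magnets and then by flow sorting, and 3' transcript ends were counted in droplets. The labels give neither the tumour model, the driver of the deletion, the exons removed nor the number of animals pooled. Each group is 1 library. No test across animals exists, every interval given is a 95% interval for counting error only, and levels are CPM, the UMIs of a gene per 1000000 UMIs of the class of cells named.

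Interferons are secreted proteins that bind receptors on nearly every cell. Type I interferon activates the kinases Jak1 and Tyk2 and, through them, a complex with Stat2 and Irf9 that binds the interferon-stimulated response element (ISRE) in the promoters of antiviral genes. Interferon gamma acts mainly on a different element (GAS), and the target genes of both overlap. In tumours, interferon is made by immune and tumour cells, and Tregs carry both receptors.

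The promoters of some genes on which the results turn are shown because the ISRE is an element that many interferon-induced genes hold. The sequences are the 250 bases before the annotated start in RefSeq (build GRCm38.p6), 5' to 3' on the gene's strand, with matches to GAAANNGAAA or its other strand TTTCNNTTTC in capitals. The windows are chr4:156200819-156201068 on the minus strand for Isg15, chr19:34640639-34640888 on the plus strand for Ifit1, and chr19:34583279-34583528 on the plus strand for Ifit3. They are chr12:26456453-26456702 on the minus strand for Rsad2 and chr5:92348890-92349139 on the minus strand for Cxcl10. They are chr3:142496684-142496933 on the plus strand for Gbp5 and chr7:141266425-141266674 on the minus strand for Irf7. Irf7 is shown as a strongly interferon-linked gene whose window holds no match to these letters.
Isg15: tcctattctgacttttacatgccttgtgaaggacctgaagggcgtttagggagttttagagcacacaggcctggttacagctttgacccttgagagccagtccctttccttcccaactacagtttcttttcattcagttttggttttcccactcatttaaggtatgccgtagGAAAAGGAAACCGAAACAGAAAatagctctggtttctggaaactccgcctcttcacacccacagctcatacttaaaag
Ifit1: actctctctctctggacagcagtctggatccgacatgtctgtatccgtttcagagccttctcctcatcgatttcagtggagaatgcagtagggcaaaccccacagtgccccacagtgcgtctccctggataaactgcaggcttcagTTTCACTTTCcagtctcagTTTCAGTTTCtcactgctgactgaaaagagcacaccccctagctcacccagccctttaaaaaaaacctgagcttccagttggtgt
Ifit3: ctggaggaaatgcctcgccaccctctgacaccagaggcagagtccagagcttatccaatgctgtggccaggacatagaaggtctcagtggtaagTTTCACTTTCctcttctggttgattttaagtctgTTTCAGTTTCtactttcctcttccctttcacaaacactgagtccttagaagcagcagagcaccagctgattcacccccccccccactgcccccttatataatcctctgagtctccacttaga
Rsad2: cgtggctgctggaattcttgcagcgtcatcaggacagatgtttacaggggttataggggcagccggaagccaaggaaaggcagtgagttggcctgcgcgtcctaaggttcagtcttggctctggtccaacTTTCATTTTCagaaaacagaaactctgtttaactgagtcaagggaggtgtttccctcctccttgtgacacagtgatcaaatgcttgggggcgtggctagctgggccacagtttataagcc
Cxcl10: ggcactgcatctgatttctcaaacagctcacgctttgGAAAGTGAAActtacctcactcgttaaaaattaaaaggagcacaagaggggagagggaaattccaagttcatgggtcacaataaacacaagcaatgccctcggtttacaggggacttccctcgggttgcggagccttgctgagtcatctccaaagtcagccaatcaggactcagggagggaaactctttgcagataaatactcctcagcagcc
Gbp5: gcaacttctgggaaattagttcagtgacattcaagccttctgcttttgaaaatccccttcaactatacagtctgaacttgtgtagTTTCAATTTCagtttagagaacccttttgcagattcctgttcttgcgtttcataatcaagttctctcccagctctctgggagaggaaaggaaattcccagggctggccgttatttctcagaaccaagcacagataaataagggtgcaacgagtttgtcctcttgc
Irf7: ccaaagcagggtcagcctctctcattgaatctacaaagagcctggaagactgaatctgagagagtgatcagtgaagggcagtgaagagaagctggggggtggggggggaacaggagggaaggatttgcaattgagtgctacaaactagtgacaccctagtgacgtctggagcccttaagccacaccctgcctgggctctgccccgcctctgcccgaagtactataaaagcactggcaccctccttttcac

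The Isg15 window holds 3 matches that overlap each other, which begin 78, 72 and 66 bases before the start. Ifit1 has matches 104 and 85 bases before its start, and Ifit3 has matches 156 and 122 bases before its start. Rsad2, Cxcl10 and Gbp5 each have 1, at 120, 213 and 165 bases. Over windows of 250 bases before to 50 bases after the start, the motif was present in 4 of the 4 rule genes that RefSeq's table held and in 30 of 66 genes (45.5%) of a list of type I effectors. It was present in 10 of 11 genes of the GBP and IRG families and in 5 of 19 genes of the MHC class I and immunoproteasome list. Of the 15 genes highest in members over sum-0 Tregs, 14 had a window and 7 of these held the motif (50%). Cmpk2, Ifi44, Ifit2, Irf7, Ms4a4c, Oasl1 and Oasl2 did not. Among all 27025 genes with a window the motif was present in 1079 (3.99%). None of 13 Treg identity genes with a window held it. The GAS motif TTCNNNGAA, which reads the same on both strands, was in 6 of 11 GBP and IRG genes (54.5%), 3 of 13 Treg identity genes (23.1%), 10 of 66 type I effectors (15.2%), none of the 4 rule genes and 9.55% of all genes. A match is a description of these letters only.

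The targeted gene was read first. Jmjd1c stood at 81.5 CPM in cKO members and 82.8 CPM in cKO sum-0 Tregs, against 108.7 CPM in WT members and 97.3 CPM in WT sum-0 Tregs. The cKO members were at 0.750 times the WT members (0.593 to 0.943), and at 0.809 times (0.629 to 1.03) when cells with RNA of antigen-presenting cells were left out. Tags from the 3' end can lie outside the deleted exons, and therefore this reading is no check of the deletion. The libraries also differed by sex-linked transcripts: Xist was found in 0.273% of 4026 kept cKO cells and 97.1% of 3842 kept WT cells, and Y-linked transcripts in 74.6% of cKO cells and 0% of WT cells. Genotype, sex and library cannot be told apart in any difference between cKO and WT. The cKO library was the shallower one, with a median of 6044 UMIs in members and 5663.5 in sum-0 Tregs, against 7863 and 7125.5 in WT. The libraries shared 2 barcodes.

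Members made up 8.63% of the 2051 non-cycling Treg-gate cells in cKO (7.45 to 9.93) and 11.2% of 1962 in WT (9.85 to 12.7). The sum of the rule genes had no gap at the threshold. In cKO 534 cells had a sum of 1 to 2, 116 of 3 to 4, 88 of 5 to 9, 63 of 10 to 29 and 26 of 30 or more. The same classes held 419, 83, 95, 70 and 55 cells in WT. The WT share was the higher one above the threshold and the cKO share was the higher one at sums of 1 to 4. The intervals overlapped in the classes of 5 to 9 and of 10 to 29, and not at 30 or more, with 1.27% in cKO (0.830 to 1.85) and 2.80% in WT (2.12 to 3.63). When every cell was thinned to 4100 UMIs, which left out 320 cKO and 94 WT cells, 6.01% of cKO and 7.12% of WT cells kept a sum of at least 5, with intervals that overlapped. At a sum of at least 3 the thinned shares were 10.1% in cKO and 10.2% in WT, and at a sum of at least 10 they were 3.004% (2.25 to 3.92) and 4.34% (3.46 to 5.36). At equal depth a sum of at least 1 was found in 33.4% of cKO cells (31.2 to 35.7) and 27.0% of WT cells (25.03 to 29.1). The order of the libraries therefore depended on the sum that was asked for.

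**Figure D1:**
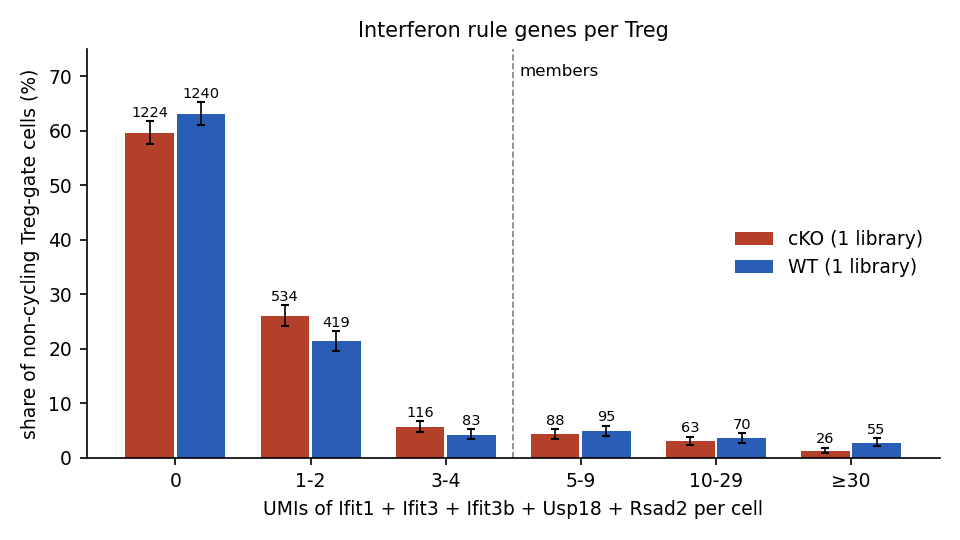
Share of non-cycling Treg-gate cells (%) by the summed UMIs of the 5 rule genes per cell, cKO (red) left of WT (blue), with 95% Clopper-Pearson intervals and the number of cells above each bar. Cells with sums of at least 5, right of the dashed line, are members; the cKO bar is the higher one at sums of 1 to 4 and the WT bar at sums of 5 and more.

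Among cycling gate cells, 65 of 801 in cKO (8.11%, 6.32 to 10.2) and 143 of 1279 in WT (11.2%, 9.51 to 13.04) had a sum of at least 5, close to the shares among non-cycling cells of the same library. Cells outside the Treg gate also carried the rule genes. A sum of at least 5 was found in 50 of 192 macrophage-gated cells in cKO (26.0%) and 11 of 36 in WT (30.6%), with median depths of 12766 and 14327 UMIs. It was found in 15 of 136 CD8-gated cells in cKO (11.03%) and 3 of 11 in WT (27.3%), a number too small to place the WT value.

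The rule genes are given as a description, since they chose the cells. Ifit1, Ifit3 and Ifit3b encode tetratricopeptide proteins that bind foreign RNA. Ifit1 stood at 1213 CPM in cKO members and 920.4 CPM in WT members. Ifit3 stood at 536.9 CPM in cKO members and 699.1 CPM in WT members, and its near copy Ifit3b at 125.1 and 166.4 CPM. Reads may be split between these copies, so their separate levels are uncertain. Rsad2 (viperin, which makes a chain-terminating nucleotide) stood at 458.3 CPM in cKO members and 317.6 CPM in WT members. Usp18, the protease that removes ISG15 from proteins and blocks type I receptor signalling, stood at 213.8 and 235.6 CPM. With all cells Ifit1 and Rsad2 were the higher ones in cKO members and Ifit3 and Ifit3b in WT members, while the interval of the Usp18 ratio spanned 1. A single cKO member held 228 of the 641 Rsad2 UMIs, and without the cells with antigen-presenting-cell RNA Rsad2 stood at 349.5 CPM in cKO members and 329.5 CPM in WT members, a ratio of 1.06 (0.927 to 1.21). At the edge of the rule, cells with a sum of 4 had a summed level of type I effector genes of 23825 CPM in cKO and 20513 CPM in WT, and cells with a sum of 5 had 24680 and 21212 CPM. Cells just outside the threshold thus carried nearly the same level of these genes as cells just inside it.

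Interferon markers that the rule did not use were read as a check of the label, and Treg markers outside the gate were read beside them. The 9 interferon markers read were Isg15, Ifit2, Oas1a, Oasl2, Irf7, Ifi44, Rtp4, Bst2 and Cmpk2. Mx1, planned as a marker as well, was left out of this check. All 9 were at least 2-fold higher in members than in sum-0 Tregs of both libraries, as were 2.98% of the 4903 genes whose mean reached 20 CPM. None of the 10 Treg markers outside the gate with a mean of at least 20 CPM was 2-fold lower in either library, against 0.428% of all 4903 genes in cKO and 0.122% in WT. Their log2 ratios ran between -0.53 and 0.01 in cKO and between -0.50 and 0.31 in WT. Both classes passed the same Treg gate, so this comparison cannot check that members are Tregs. None of 10 is also near the share of all genes. Icos, a costimulatory receptor, stood at 1718 CPM in cKO members and 1921 CPM in cKO sum-0 Tregs, against 983.4 and 1018 CPM in WT. Tnfrsf4 (OX40) stood at 2502 CPM in cKO members and 3616 CPM in cKO sum-0 Tregs, against 2360 and 2458 CPM in WT. For the gate genes, Ctla4 stood at 1737 CPM in cKO members and 2100 CPM in cKO sum-0 Tregs, against 1311 and 1216 CPM in WT. These values of Icos, Tnfrsf4 and Ctla4 are with all cells. The 7 gate genes, summed, had a fold of members over sum-0 Tregs of 0.840 in cKO and 0.905 in WT with all cells. Without the cells with RNA of antigen-presenting cells, described next, the folds were 0.970 and 0.977.

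A part of the members held RNA of antigen-presenting cells. With at least 20 UMIs of H2-Aa, H2-Ab1, H2-Eb1 and Cd74 or at least 10 UMIs of a macrophage list as the limit, 21 of 177 cKO members (11.9%, 7.496 to 17.6) and 14 of 220 WT members (6.36%, 3.52 to 10.4) were such cells. Among sum-0 Tregs there were 30 of 1224 in cKO (2.45%) and 33 of 1240 in WT (2.66%). These members were deep, with medians of 19923 UMIs in cKO and 21088 in WT. They held 374355 of the 1398749 UMIs of cKO members and 345636 of the 2096857 UMIs of WT members. Such cells held 364529 of 8020682 UMIs in cKO sum-0 Tregs and 585430 of 10413167 in WT sum-0 Tregs. Levels of T cell genes in members with all cells are therefore lowered by this RNA, more so in cKO. The limit was chosen after the data were seen, and doublets could not be removed with a caller. Of the macrophage list, 12 of 13 genes had a UMI in members of each library, with Adgre1 at 0, and the list summed to 905.1 CPM in cKO members and 215.1 CPM in cKO sum-0 Tregs, against 339.1 and 74.8 CPM in WT. Of the dendritic cell list, 9 of 11 genes had a UMI in cKO members, with Xcr1 and Siglech at 0, and the list summed to 9756 CPM in cKO members and 1317 CPM in cKO sum-0 Tregs, against 4425 and 1194 CPM in WT. Without those cells the dendritic list summed to 293.8 CPM in cKO members and 358.7 CPM in cKO sum-0 Tregs, against 393.4 and 387.1 CPM in WT. The limit itself uses class II genes, which the dendritic list holds, and the macrophage list, so a lower sum after those cells are left out is set by the limit. For some genes and lists, results are also given without these cells. Other values are with all cells unless the text says otherwise. B cell, neutrophil, erythroid, fibroblast and epithelial markers stayed between 0 and 173.6 summed CPM in all 4 classes.

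Of the 4903 genes, with the mean taken over the 4 classes of cells, 3.47% were at least 2-fold higher in members than in sum-0 Tregs in cKO, 3.61% in WT and 2.98% in both libraries (146 genes). Fold calls and log2 ratios carry a pseudocount of 5 CPM and are not tests. Of these 146 genes 81 stood in interferon lists. Without the cells with antigen-presenting-cell RNA, 101 of the 146 were still 2-fold higher in both libraries, 73 of them from those lists. The other 45 were no longer so, and 8 of them were from the lists. They included Il1b, at 1405 CPM in cKO members and 93.8 CPM in cKO sum-0 Tregs, whose log2 ratio was 3.84 in cKO and 2.43 in WT with those cells and 0.37 and 0.09 without them. Lower genes were few: 0.428% of genes were at least 2-fold lower in members in cKO, 0.122% in WT and 0.0204% in both, which is 1 gene. The median log2 ratio of all genes was -0.11 in cKO and -0.09 in WT. The shares of higher genes, 3.47% in cKO, 3.61% in WT and 2.98% in both, are the background for the list counts that follow. With the mean and floor taken anew without the cells with antigen-presenting-cell RNA, 112 genes were 2-fold higher in both libraries.

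The highest gene by the smaller of the ratios in both libraries was Cxcl10, the CXCR3 ligand that draws activated T cells. It stood at 1057 CPM in cKO members (1004 to 1113) and 84.8 CPM in cKO sum-0 Tregs (78.5 to 91.4). In WT it stood at 1194 CPM in members (1147 to 1241) and 28.4 CPM in sum-0 Tregs (25.3 to 31.9). Members were 12.5-fold higher in cKO (11.4 to 13.7) and 42.0-fold higher in WT (37.2 to 47.5). The Cxcl10 UMIs of members were unevenly spread: they came from 73 of 177 cells in cKO and 107 of 220 in WT, and the cell with the most held 238 of 1479 UMIs in cKO and 429 of 2503 in WT. Its log2 ratio was 3.56 in cKO and 5.16 in WT, and 4.02 and 5.24 without the cells with antigen-presenting-cell RNA. Cxcl9, another CXCR3 ligand, behaved otherwise. It stood at 245.2 CPM in cKO members and 41.6 CPM in cKO sum-0 Tregs, against 36.2 and 1.06 CPM in WT, and its log2 ratio of 2.42 in cKO and 2.77 in WT was -0.59 and -0.14 without those cells. Only 2 Cxcl9 UMIs in cKO members and 1 in WT members were then left, and both intervals of the fold spanned 1.

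Isg15, a ubiquitin-like protein that is attached to other proteins, stood at 2818 CPM in cKO members (2731 to 2908) and 284.8 CPM in cKO sum-0 Tregs (273.2 to 296.7). In WT it stood at 1517 CPM in members (1464 to 1570) and 80.2 CPM in sum-0 Tregs (74.8 to 85.8). The fold was 9.90 in cKO (9.40 to 10.4) and 18.9 in WT (17.5 to 20.4). All 4 genes of the ISG15 conjugation list that could be read were at least 2-fold higher in members of both libraries, beside 2.98% of all genes. Herc6, the mouse ligase for ISG15, stood at 164.4 CPM in cKO members and 25.2 CPM in cKO sum-0 Tregs, against 145.9 and 24.97 CPM in WT. Ube2l6, the conjugating enzyme, stood at 242.4 and 49.4 CPM in cKO, against 224.1 and 49.6 CPM in WT. Uba7, the activating enzyme, had log2 ratios of 1.04 in cKO and 1.06 in WT. All 4 genes read, of 5 listed, were thus higher in members, Isg15 by the most.

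**Figure D2:**
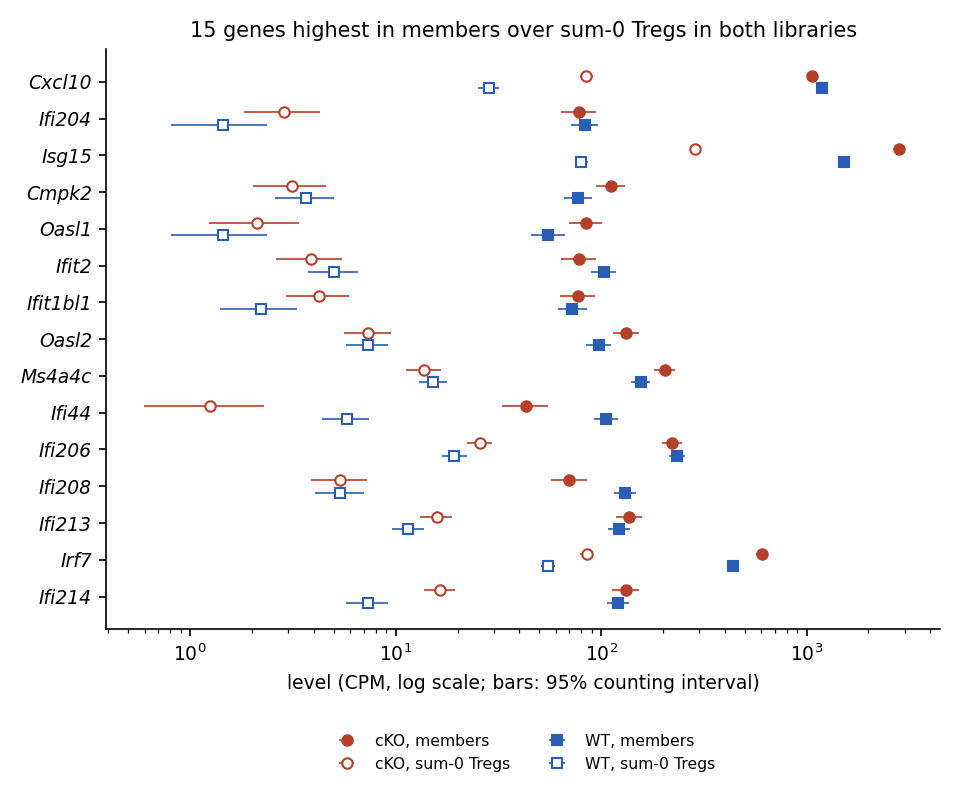
Levels (CPM, log axis) of the 15 genes with the highest ratio of members (filled) over sum-0 Tregs (open) by the smaller of the values in cKO (red circles) and WT (blue squares), with 95% Poisson intervals. For each gene both filled points lie to the right of both open points; Isg15 and Cxcl10 have a higher open point in cKO than in WT.

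The highest 15 also held Irf7, Ifit2, Oasl2 and Cmpk2. Irf7, the factor that amplifies type I interferon responses, stood at 604.1 CPM in cKO members and 85.0 CPM in cKO sum-0 Tregs, against 439.7 and 55.1 CPM in WT. Ifit2 stood at 77.9 CPM in cKO members and 3.87 CPM in cKO sum-0 Tregs, against 103.0 and 4.99 CPM in WT. Oasl2, related to the 2'-5' oligoadenylate synthetases, stood at 132.3 and 7.36 CPM in cKO, against 97.3 and 7.30 CPM in WT. Cmpk2, a mitochondrial nucleotide kinase encoded next to Rsad2, stood at 111.5 and 3.12 CPM in cKO, against 77.3 and 3.65 CPM in WT. The remaining ones were Oasl1, Ifit1bl1, Ms4a4c, Ifi44, Ifi204, Ifi206, Ifi208, Ifi213 and Ifi214, with log2 ratios between 2.67 and 3.65 in cKO and between 2.95 and 3.78 in WT. Members of the Ifi200 family lie side by side on chromosome 1 and are close copies of each other, so reads may be split between them.

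Of 79 type I effector genes found in the files, 69 had a mean of at least 20 CPM. At least 2-fold higher in members were 58 in cKO and 61 in WT, 58 of them in both, beside 2.98% of all genes in both. None was 2-fold lower, beside 0.428% of all genes in cKO and 0.122% in WT. The median log2 ratio of the 69 was 1.77 in cKO and 2.17 in WT. The summed level of all 79 was 34058 CPM in cKO members and 13607 CPM in cKO sum-0 Tregs, a fold of 2.503 (2.48 to 2.53). In WT it was 30180 CPM in members and 10889 CPM in sum-0 Tregs, a fold of 2.77 (2.74 to 2.80). Per cell, the summed level had a median of 32743 CPM in cKO members and 12274 CPM in cKO sum-0 Tregs, against 29585 and 9465 CPM in WT. Of members, 81.4% in cKO and 85.9% in WT lay above the 90th percentile of the sum-0 Tregs of their library. The cells overlapped little but did overlap: 5.88% of cKO and 4.19% of WT sum-0 Tregs lay above the lower quartile of members.

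Some type I genes differed little or the other way. Ly6e, an antiviral surface protein, stood at 1651 CPM in cKO members and 1422 CPM in cKO sum-0 Tregs, against 2062 and 1782 CPM in WT. Zc3hav1, which binds viral RNA, had log2 ratios of 0.09 in cKO and 0.31 in WT. Ifi27, a mitochondrial protein that carries the name of an interferon-induced human gene, was among the 15 lowest genes, at 145.8 CPM in cKO members and 243.1 CPM in cKO sum-0 Tregs, against 143.1 and 232.7 CPM in WT. Ifi27l2a, of the same family, stood at 9365 and 4754 CPM in cKO, against 8928 and 3701 CPM in WT. Ifitm3, which blocks viral entry, stood at 1383 CPM in cKO members and 265.9 CPM in cKO sum-0 Tregs, against 691.5 and 105.6 CPM in WT. Without the cells with antigen-presenting-cell RNA its log2 ratio was 1.67 in cKO and 2.46 in WT, while that of Ifitm2 was -0.54 and 0.72 in place of 1.23 and 1.07.

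Cytosolic sensors of nucleic acid were higher in members as well. At least 2-fold higher in both libraries were 11 of 16 genes read, beside 2.98% of all genes. Without the cells with antigen-presenting-cell RNA 10 of 16 were so. Ddx58 (RIG-I) stood at 108.0 CPM in cKO members and 22.2 CPM in cKO sum-0 Tregs, against 127.3 and 24.3 CPM in WT. Ifih1 (MDA5) stood at 92.2 and 15.7 CPM in cKO, against 101.6 and 18.7 CPM in WT. Dhx58 (LGP2) stood at 77.9 and 10.3 CPM in cKO, against 89.7 and 11.3 CPM in WT. Zbp1, the sensor of left-handed nucleic acid that can start necroptosis, stood at 576.2 and 142.8 CPM in cKO, against 469.8 and 79.9 CPM in WT. All 3 RIG-I-like receptors were therefore higher in members of both libraries by similar folds. Tmem173 (STING) had log2 ratios of -0.26 in cKO and 0.22 in WT, and Aim2 of 0.10 and -0.10.

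Interferon transcripts other than that of Ifng were not found in members. Of 16 interferon genes found in the files, Ifng alone had a UMI in members. It stood at 35.03 CPM in cKO members and 40.1 CPM in cKO sum-0 Tregs, against 26.7 and 19.6 CPM in WT, and both intervals of the ratio spanned 1. It stood, without the cells with antigen-presenting-cell RNA, at 43.9 and 40.1 CPM in cKO (ratio interval 0.783 to 1.502), against 31.98 and 20.6 CPM in WT, where the fold was 1.56 (1.14 to 2.10). Receptor genes did not set members apart. Ifnar1 stood at 151.6 CPM in cKO members and 142.1 CPM in cKO sum-0 Tregs, against 112.1 and 100.6 CPM in WT. Ifngr1 stood at 1336 and 1461 CPM in cKO, against 1026 and 1171 CPM in WT. Of the transducers, Stat2 was higher, at 89.4 and 25.8 CPM in cKO, against 85.4 and 14.98 CPM in WT. Irf9 had a fold of 1.43 in cKO (1.18 to 1.73) and 1.98 in WT (1.69 to 2.33). Of 7 interferon regulatory factors read, only Irf7 was 2-fold higher in either library.

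Feedback genes were divided, with 3 of 10 at least 2-fold higher in both libraries, beside 2.98% of all genes. Trim30a, which restrains Toll-like receptor signalling, stood at 346.7 CPM in cKO members and 75.9 CPM in cKO sum-0 Tregs, against 308.6 and 53.6 CPM in WT. Socs1, the inhibitor of JAK kinases, stood at 210.2 and 210.7 CPM in cKO, against 153.1 and 106.4 CPM in WT. Its log2 ratio was 0.00 in cKO and 0.50 in WT, and without the cells with antigen-presenting-cell RNA 0.28 and 0.65. Socs3 had log2 ratios of 0.09 and 0.52.

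The GBP and IRG families are GTPases that attack the vacuoles of pathogens and are strong targets of interferon gamma. At least 2-fold higher in members were 8 of 15 in cKO and 14 of 15 in WT, beside 3.47% and 3.61% of all genes. The medians were 1.32 and 1.59 on the log2 scale. Without the cells with antigen-presenting-cell RNA 11 of 15 were 2-fold higher in both libraries. Ifi47 stood at 717.1 CPM in cKO members and 204.1 CPM in cKO sum-0 Tregs, against 425.9 and 76.0 CPM in WT. Igtp stood at 875.1 and 547.0 CPM in cKO, against 415.4 and 167.6 CPM in WT, with log2 ratios of 0.67 in cKO and 1.28 in WT. Gbp2 stood at 328.9 and 93.4 CPM in cKO, against 136.9 and 27.0 CPM in WT. The copies Tgtp1 and Tgtp2 may share reads. In both classes of cells the cKO levels of Ifi47, Igtp and Gbp2 were the higher ones.

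A list of genes that respond mainly to interferon gamma shares members with the families above. At least 2-fold higher in members were 11 of 22 in cKO and 16 of 22 in WT, beside 3.47% and 3.61% of all genes. Of these, 11 were so in both libraries, beside 2.98% of all genes, and 9 in both without the cells with antigen-presenting-cell RNA. Of 9 interferon-induced chemokines and ligands read, 3 were at least 2-fold higher in both libraries, beside 2.98% of all genes, and 2 without those cells.

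MHC class I and immunoproteasome genes differed less. The median log2 ratio of 22 genes was 0.27 in cKO and 0.50 in WT. Of these genes 2 were 2-fold higher in both libraries, beside 2.98% of all genes. The first was H2-T22, a class Ib molecule, at 890.8 CPM in cKO members and 418.5 CPM in cKO sum-0 Tregs, against 706.3 and 261.4 CPM in WT. The other was Psme2b, a copy of the proteasome activator Psme2. H2-K1, a classical class I molecule, stood at 7587 and 7432 CPM in cKO, against 5239 and 4699 CPM in WT. B2m stood at 3462 and 3172 CPM in cKO, against 5134 and 4532 CPM in WT. Psmb9, a catalytic subunit of the immunoproteasome, stood at 674.2 and 399.2 CPM in cKO, against 541.3 and 306.2 CPM in WT. Psmb9 thus differed more between members and sum-0 Tregs than H2-K1 or B2m did. H2-Aa, H2-Ab1 and H2-Eb1, which encode class II, had log2 ratios between 1.92 and 3.16 with all cells and between -0.60 and 0.35 without the cells with antigen-presenting-cell RNA, which these genes themselves picked.

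Genes of cell death and surface signals were mixed. Xaf1, which binds an inhibitor of apoptosis, stood at 273.1 CPM in cKO members and 58.3 CPM in cKO sum-0 Tregs, against 286.6 and 49.9 CPM in WT. Tnfsf10 (TRAIL), a death ligand, had folds of 2.44 in cKO (1.76 to 3.35) and 2.35 in WT (1.86 to 2.95). Cd274 (PD-L1) stood at 173.7 and 104.7 CPM in cKO, against 108.3 and 63.5 CPM in WT. Bcl2, Bax and Mcl1 had log2 ratios between -0.26 and 0.20. Of 24 genes of the cell death and restriction list 5 were 2-fold higher in both libraries, beside 2.98% of all genes.

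**Figure D3:**
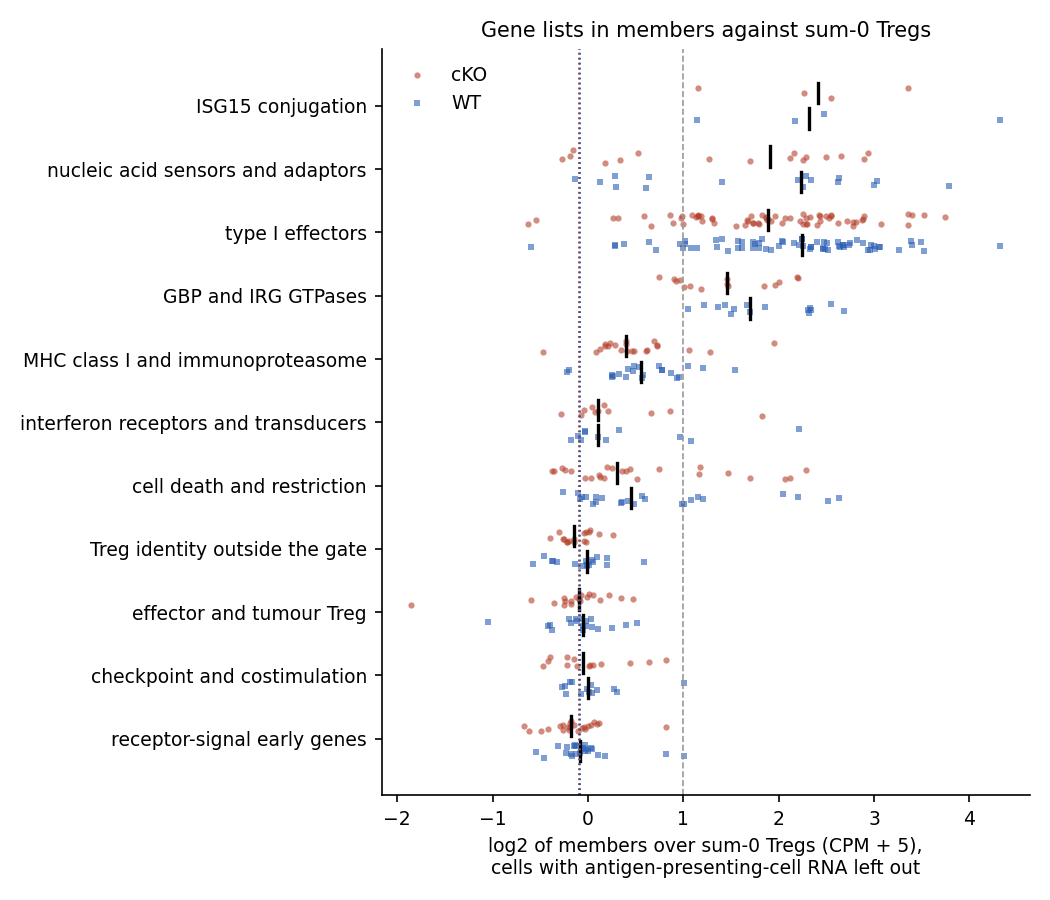
Log2 ratio of members over sum-0 Tregs (CPM + 5) for every gene of 11 lists that reached a mean of 20 CPM, cKO (red circles) above WT (blue squares), without cells with antigen-presenting-cell RNA. Black bars are list medians, dotted lines the medians of all genes (-0.09 in cKO and -0.08 in WT) and the dashed line 2-fold; the interferon lists reach to the right of it, the Treg, checkpoint and early-gene lists lie around the dotted lines. Some genes stand in more than 1 list.

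Treg genes outside the gate lay close to the level of all genes. The median log2 ratio of 17 Treg identity genes was -0.23 in cKO and -0.13 in WT, and -0.15 and -0.01 without the cells with antigen-presenting-cell RNA, against -0.11 and -0.09 for all genes. Effector and tumour Treg genes had medians of -0.17 and -0.12, suppressive mediators of -0.28 and -0.04, and checkpoint and costimulation genes of -0.22 and -0.12. Gata3, the type 2 factor also used by tissue Tregs, stood at 264.5 CPM in cKO members and 367.3 CPM in cKO sum-0 Tregs, against 205.5 and 288.8 CPM in WT. Penk, which encodes enkephalin and marks a set of tissue Tregs, stood at 243.8 and 364.8 CPM in cKO, against 238.9 and 543.7 CPM in WT. Areg, a tissue-repair factor of Tregs, stood at 984.5 and 1399 CPM in cKO, against 1285 and 1360 CPM in WT. With all cells all 3 were the lower ones in members, Areg in WT by too little to place its direction in Tregs. The summed effector and tumour Treg list had folds of 0.812 in cKO and 0.837 in WT with all cells. Without the cells with antigen-presenting-cell RNA these folds were 0.873 and 0.896.

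Gzmb, the protease of cytotoxic granules, stood at 5385 CPM in cKO members and 4264 CPM in cKO sum-0 Tregs, a fold of 1.26 (1.23 to 1.29). In WT it stood at 1057 CPM in members and 460.3 CPM in sum-0 Tregs, a fold of 2.30 (2.18 to 2.42). Cd69, which holds T cells in tissue and is induced by type I interferon, had folds of 1.45 in cKO (1.26 to 1.66) and 1.86 in WT (1.67 to 2.08). Ly6a (Sca-1), an interferon-responsive surface protein, had folds of 1.38 in cKO (1.34 to 1.42) and 1.75 in WT (1.70 to 1.81). Gzmb, Cd69 and Ly6a were each higher in members of both libraries. Without the cells with antigen-presenting-cell RNA their folds were 1.48, 1.79 and 1.45 in cKO and 2.52, 2.05 and 1.90 in WT. Early genes of T cell receptor signalling had medians of -0.12 in cKO and -0.09 in WT, with Nr4a1 at 127.3 CPM in cKO members and 189.4 CPM in cKO sum-0 Tregs, against 134.0 and 146.4 CPM in WT.

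The lowest genes formed no list chosen for them. Tnfsf8 (CD30 ligand) was the 1 gene 2-fold lower in both libraries, at 6.43 CPM in cKO members and 23.1 CPM in cKO sum-0 Tregs, against 36.2 and 83.0 CPM in WT. Its UMIs came from 4 cells in cKO and 25 in WT. Without the cells with antigen-presenting-cell RNA its log2 ratio was -1.87 in cKO and -0.95 in WT, short of 2-fold in WT. Tfrc, the transferrin receptor, stood at 14.3 and 32.5 CPM in cKO, against 24.3 and 47.3 CPM in WT. Bmyc, a gene of the Myc family, stood at 47.2 and 116.1 CPM in cKO, against 175.0 and 289.3 CPM in WT. Cd81, a tetraspanin, stood at 93.7 and 163.0 CPM in cKO, against 204.1 and 333.2 CPM in WT. Rsl1d1, Wdr18 and Mrto4, which act in ribosome assembly, had log2 ratios between -1.06 and -0.68. The others of the 15 lowest, Eef1e1, Kcnq1ot1, Ptprs, Cxcl2, Anapc1, Eea1 and Larp4, had values between -1.49 and -0.69. H2afz, a histone variant from a list of replication genes, stood at 1325 CPM in cKO members and 1815 CPM in cKO sum-0 Tregs, against 1903 and 3616 CPM in WT.

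Along the classes of the rule-gene sum, pooled levels of Isg15, the GBP and IRG list and type I effectors were higher at each further class; pooled levels cannot tell a shift of all cells from a changing mix of cells. Without the cells with antigen-presenting-cell RNA, Isg15 stood at 280.6, 456.2, 997.9, 1458, 3288 and 6537 CPM in cKO at sums of 0, 1 to 2, 3 to 4, 5 to 9, 10 to 29 and 30 or more. In WT it stood at 79.98, 156.6, 379.2, 885.3, 1631 and 2950 CPM. The GBP and IRG list summed to 1620 CPM at a sum of 0 and 8233 CPM at 30 or more in cKO, against 673.6 and 4319 CPM in WT. Type I effectors summed to 13341 and 57758 CPM in cKO, against 10844 and 41592 CPM in WT. At each of the 6 classes the cKO level of these was the higher one. The classes are UMI sums and cKO cells were shallower, so the classes are not matched between the libraries. With all cells, the rule genes stood at 781.5 CPM in cKO and 601.5 CPM in WT at a sum of 5. Treg identity genes summed to 14087 CPM at a sum of 0 and 12399 CPM at 30 or more in cKO, against 11070.5 and 9949 CPM in WT. Jmjd1c stood between 55.2 and 102.2 CPM in cKO and between 95.9 and 119.9 CPM in WT. The classes are ranges of 1 scale, not cell types.

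**Figure D4:**
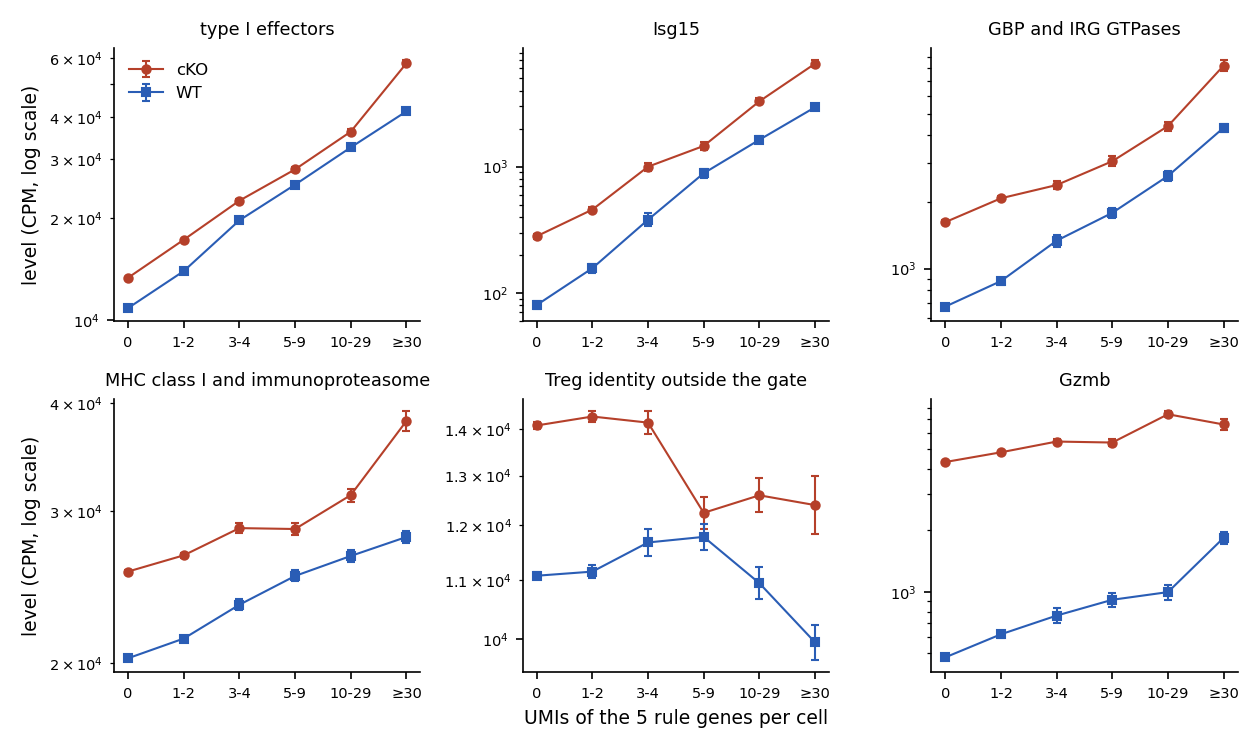
Summed level (CPM, log axes with differing ranges) of 4 gene lists, Isg15 and Gzmb by the UMIs of the 5 rule genes per cell, cKO (red circles) and WT (blue squares), without cells with antigen-presenting-cell RNA, with 95% Poisson intervals. Type I effectors, Isg15, and GBP and IRG GTPases are higher at each further class in both libraries, and cKO lies above WT in the panels of all 4 interferon measures. The classes are UMI sums and are not matched for depth between the libraries.

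Between the libraries, 1.49% of the 4903 genes were at least 2-fold higher and 1.49% at least 2-fold lower in cKO members than in WT members. Of the 69 type I effectors 1 was 2-fold higher (Ifitm1) and 2 were 2-fold lower (Ifi44 and Slfn5), with a median log2 ratio of 0.03. Intervals lay above 1 for 22 and below 1 for 15 of the 69, while over all 4903 genes they lay above 1 for 18.4% and below 1 for 14.6%. The summed level of type I effectors was 1.13 times as high in cKO members as in WT members (1.12 to 1.14). Ifi44 stood at 42.9 CPM in cKO members and 105.4 CPM in WT members, a ratio of 0.407 (0.301 to 0.544). Slfn5, a Schlafen protein, stood at 125.1 and 269.9 CPM, and Oas3 at 59.3 and 119.2 CPM. Isg15 was 1.86-fold higher in cKO members (1.77 to 1.95) and Ms4a4b, a membrane protein of T cells, 1.93-fold higher (1.81 to 2.06). Ifitm1 was read in 23 cKO and 14 WT members only. Single type I genes thus lay on both sides of equality between the libraries. Calls of 2-fold among the 69 were few, near the share of all genes each way, and do not set type I genes apart.

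Of the GBP and IRG GTPases, 13 of 15 were higher in cKO members than in WT members with all cells, beside 51.1% of the 4903 genes. Gbp7 and Gbp6 were at 0.993 and 0.929 times the WT level. When the cells with antigen-presenting-cell RNA were left out, a limit chosen after the data were seen, 15 of 15 were higher in cKO members, beside 51.6% of all genes. Of these, 10 had an interval above 1, beside 16.3% of all genes, and the median log2 ratio was 0.61. In sum-0 Tregs without those cells 15 of 15 were higher in cKO, beside 55.9% of all genes, and each had an interval above 1, beside 33.7% of all genes, with a median of 0.83. Type I effectors had medians of 0.01 in members and 0.18 in sum-0 Tregs, and all genes 0.01 and 0.04. The medians of both lists were the larger ones in sum-0 Tregs, a difference that has no test here. Isg15 was 1.86-fold higher in cKO than in WT in members and 3.55-fold higher in sum-0 Tregs (3.28 to 3.85). Cxcl10 was 0.886 times as high in members (0.830 to 0.945) and 2.98-fold higher in sum-0 Tregs (2.60 to 3.43). Since cKO cells were shallower, both classes were also taken after thinning to 4100 UMIs, without the cells with antigen-presenting-cell RNA. In thinned sum-0 Tregs Isg15 stood at 315.6 CPM in cKO and 92.6 CPM in WT, Igtp at 597.6 and 171.1 CPM, and the GBP and IRG list at 1732 and 713 CPM. In thinned cells with a sum of at least 3, Cxcl10 stood at 866.9 CPM in cKO and 1553 CPM in WT. Isg15 stood there at 2900 and 1850 CPM, type I effectors at 35924 and 33576 CPM, and the GBP and IRG list at 4271 and 2942 CPM. The lower Cxcl10 level of cKO members was thus more marked at equal depth.

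**Figure D5:**
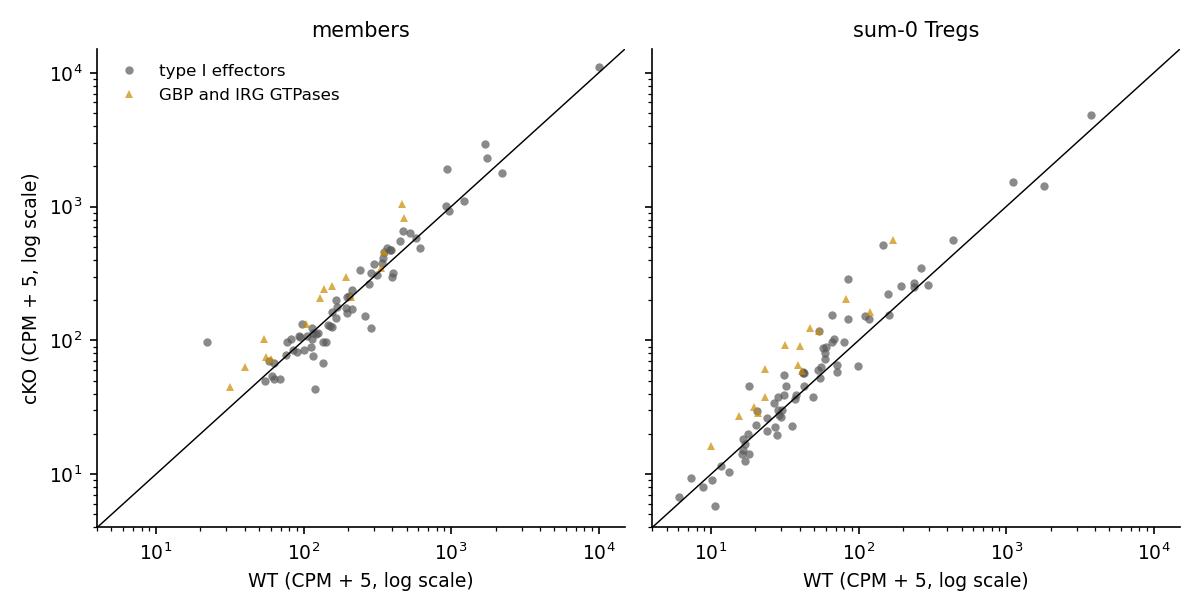
Level in cKO (vertical) against WT (horizontal), both as CPM + 5 on log axes, of 69 type I effectors (grey circles) and 15 GBP and IRG GTPases (ochre triangles) in members (left) and sum-0 Tregs (right), without cells with antigen-presenting-cell RNA. The line marks equal levels; all triangles lie above it in both panels, while the circles lie on both sides of it in members.

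The 8 genes highest in cKO members over WT members were Il1rn, Cxcl9, Gzmb, Il1b, Gpr18, Il10, Ifi205 and Cd14. Gzmb was 5.10-fold higher in cKO members (4.86 to 5.34) and 9.26-fold higher in cKO sum-0 Tregs (8.99 to 9.55). Il10, the suppressive cytokine, stood at 113.7 CPM in cKO members and 24.8 CPM in WT members, and at 106.1 and 28.2 CPM in sum-0 Tregs. Gpr18, a receptor of tissue T cells, stood at 80.8 CPM in cKO members and 16.2 CPM in WT members, and at 54.9 and 9.70 CPM in sum-0 Tregs. Without the cells with antigen-presenting-cell RNA the log2 ratios of these 3 were 2.41, 2.05 and 2.15. Those of Il1rn, Cxcl9, Il1b and Cd14 were then 1.25, 0.32, 1.41 and 0.46 in place of 2.87, 2.60, 2.21 and 1.81, and that of Ifi205 was -0.16 in place of 1.94. Ifi205 then had 0 UMIs in cKO members and 1 UMI in WT members, and Cxcl9 had 2 and 1. The values of these 2 genes without those cells are therefore set mostly by the pseudocount.

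The 8 lowest were AY036118, Ccl1, Ier5l, Cxcl2, Ttn, Tnfsf8, Bmyc and Lars2. AY036118 stood at 27.9 CPM in cKO members and 485.0 CPM in WT members, and at 29.8 and 423.7 CPM in sum-0 Tregs. Ier5l, an immediate early gene, stood at 19.3 CPM in cKO members and 105.4 CPM in WT members, and at 22.8 and 108.8 CPM in sum-0 Tregs. Lars2, the mitochondrial leucyl-tRNA synthetase, stood at 62.2 CPM in cKO members and 220.8 CPM in WT members, and at 80.04 and 219.0 CPM in sum-0 Tregs. Of these 8 genes 7 were lower in cKO in both classes of cells; Ccl1 was the other one, with 42.4 CPM in cKO and 26.2 CPM in WT sum-0 Tregs. These differences were therefore not limited to members, and the part of sex, genotype and library in them cannot be told apart.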

How the data were processed

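The deposited values are UMI counts per gene and cell barcode. The authors made them with Cell Ranger 5.0.1 on build mm10, per the submitters' processing notes. No source used here gives the annotation release or says whether doublets were removed before deposit. The cKO library held 4105 barcodes and 37666195 UMIs and the WT library 3905 barcodes and 49063944 UMIs. Cells with at least 500 genes and under 10% mitochondrial UMIs were kept, 4026 in cKO and 3842 in WT. Treg-gate cells numbered 2852 in cKO and 3241 in WT, before cycling cells were left out. Counts were summed per class of cells and scaled to CPM with Python 3.11.15, numpy 2.4.6, pandas 2.3.3 and scipy 1.17.1, and plots were drawn with matplotlib 3.10.9. Levels carry exact Poisson intervals, ratios exact conditional binomial intervals and shares Clopper-Pearson intervals, at 95%. UMIs of 1 library are not replicates, so no p-value was computed. Log2 ratios use CPM + 5, and genes were ranked at a mean of at least 20 CPM.

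Named genes were the 15 highest and 15 lowest ratios of members over sum-0 Tregs by the weaker of the libraries, the 8 highest and 8 lowest of cKO over WT in members, and members of gene lists. Rule and gate genes, receptor segments, mitochondrial and sex-linked genes and unnamed gene models were left out of these rankings. The code for the folds was checked on simulated counts. Scrublet, run through scanpy 1.11.5, called 0 of 4026 cKO and 1 of 3842 WT cells (0.026%), which gave no usable doublet call, and no doublets were removed. Free RNA was not corrected. The members and lists were chosen with earlier results of these data known. Promoters came from RefSeq tables of build GRCm38.p6. Alternatives covered the minimum sum, thinning, depth, the gate, scaling, the pseudocount, the floor and cells with antigen-presenting-cell RNA.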

Additional observations from a re-analysis of the deposited data

Results flagged for a closer look

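Of 322 genes in the lists and rankings, 9 lay on opposite sides of equality in the libraries when members were set against sum-0 Tregs, with both counting intervals clear of 1. The same count was not made over all genes, so 9 of 322 has no background share beside it. With 1 library per genotype this difference was not tested. Values are log2 ratios in cKO and then in WT. Ccl1, a chemokine, had -2.24 and 1.41, and its UMIs came from 1 cKO and 4 WT members, with 156 of the 163 WT UMIs in 1 cell. Ccl4, another chemokine, had -1.41 and 0.51, and its UMIs came from 20 cKO and 11 WT members, with 81 of the 140 WT UMIs in 1 cell. Without the member of each library that held the most UMIs of the gene, a comparison chosen after seeing the data, Ccl1 had -3.24 and -1.90 and Ccl4 -1.84 and -0.59, below 0 in both libraries. Gzma, a granule protease, had -1.37 and 1.33, and without the cells with antigen-presenting-cell RNA 1.88 and 1.495. Nr4a2 had 0.73 and -0.30 and Nr4a3 0.24 and -0.23, both early genes of receptor signalling, and without those cells both were below 0 in both libraries. Capg, an actin-capping protein, had -0.11 and 0.14, and H2-Q7, a class Ib molecule with close copies, -0.089 and 0.29; without those cells both were above 0 in both libraries. The chaperones Hsp90aa1 and Hspa8 had -0.17 and 0.13, and -0.094 and 0.14; without those cells Hsp90aa1 had -0.08 and 0.05, and Hspa8 was below 0 in both, at -0.12 and -0.0086.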

How the results depend on the processing

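No paired analysis was possible because each genotype has 1 library. Leaving out a replicate was not possible for the same reason. Free RNA, doublets and 1 library per genotype limit every value, and thinly read genes such as Tnfsf8 and Ccl1 rest on few cells. Members were 8.63% of cKO and 11.2% of WT Tregs; with a minimum sum of 3 they were 14.3% and 15.4%, with 10 they were 4.34% and 6.37%, and thinned to 4100 UMIs with a minimum of 3 the cKO share was 10.1%. The type I effector sum of members over sum-0 Tregs was 1.32 in cKO and 1.47 in WT on the log2 scale. It was 1.12 and 1.31 with a minimum of 3, 1.598 and 1.71 with 10, 1.36 and 1.53 among cells of 6000 to 16000 UMIs, and 1.41 and 1.58 with no myeloid UMIs. It was 1.34 and 1.49 without the highest 5% of Scrublet scores, 1.43 and 1.55 with median of ratios scaling, 1.14 and 1.31 against sums of 0 to 4, and 1.41 and 1.56 without antigen-presenting-cell RNA, an alternative chosen after seeing the data. In WT it was 1.54 when thinned and 1.45 with cycling cells kept. For cKO over WT members the type I sum was 0.17; it was 0.13 with a minimum of 3, 0.21 with 10, 0.13 when thinned, 0.073 among cells of 6000 to 16000 UMIs, 0.29 with cycling cells kept and 0.15 without antigen-presenting-cell RNA. Genes 2-fold higher in both libraries numbered 146, and between 106 and 192 under the alternatives. Genes 2-fold lower in both numbered 1; they numbered 0 with a minimum of 3 or against sums of 0 to 4, 2 with a floor of 5 CPM, 7 among cells of 6000 to 16000 UMIs, and 3 with a minimum of 10, when thinned, with a pseudocount of 1 or without antigen-presenting-cell RNA. Of 924 values of named genes under the alternatives, 780 stayed within the spread used and 3 turned round; the cause was not tested. The turned ones were cKO over WT in members for Ifi205, at -0.17 with no myeloid UMIs and -0.16 without antigen-presenting-cell RNA, and for Ccl1, at 0.60 when thinned. Without antigen-presenting-cell RNA Ifi205 had 0 UMIs in cKO members and 1 UMI in WT members. Its value of -0.16 is therefore set by the pseudocount and shows no reversal.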

Other observations

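The medians of other gene groups in members lay near that of all genes, whose median log2 ratio was -0.11 in cKO and -0.09 in WT. Quiescence and lymphoid homing genes had medians of -0.02 in cKO and 0.03 in WT over 12 genes, genes of the type 1 programme 0.06 and 0.17 over 13, heat-shock chaperones -0.19 and -0.05 over 11, and replication genes 0.07 and -0.20 over 9. The summed replication list was lower in members, with a fold of 0.839 in cKO (0.810 to 0.869) and 0.628 in WT (0.612 to 0.645). Of the 9 replication genes read, 5 were higher in cKO members and 0 in WT members. Of 3 Ly6 surface genes read, Ly6c2, a marker of memory and interferon-exposed T cells, stood at 102.2 CPM in cKO members and 37.2 CPM in cKO sum-0 Tregs, against 30.5 and 2.69 CPM in WT. A list of 5 genes for natural killer cells summed to 392.5 CPM in cKO members and 62.3 CPM in cKO sum-0 Tregs, against 170.7 and 29.4 CPM in WT, and to 14.6 and 13.5 CPM in cKO, against 2.86 and 3.77 CPM in WT, without the cells with antigen-presenting-cell RNA. Tyrobp, which the macrophage list also holds, gave 460 of its UMIs in cKO members and Klrk1 88, Ncr1 had 1, and Klrb1c and Eomes were at 0; in WT members Tyrobp had 288 and Klrk1 70, and Klrb1c, Ncr1 and Eomes were at 0.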
